A study of Mus musculus with 32 samples.

Results

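The genes described here are 10 genes of the wall of brain vessels: the endothelial receptors Flt1, Kdr and Tek, the junction and surface proteins Cldn5, Pecam1 and Ly6c1, the transporter Slco1c1, and the basement membrane genes Col4a1, Col4a2 and Sparc. All probes of the array that carry these gene symbols were taken, 13 of 25697 probes, for 10 of 18138 symbols. Of these, 10 probes for 9 genes were detected on enough arrays to be tested, among 10187 tested probes for 7926 genes. The RNA came from the dorsal frontal cortex (FCtx) of 32 female F1 mice of C57BL/6J and FVB/NJ, 20 ethanol-treated and 12 control. Ethanol-treated mice could choose between a 20% ethanol solution and water in a limited session of the dark phase for 20 days, and controls received no ethanol. The direction of each cross, the age of the mice and the amount drunk by each mouse were not given in the labels.

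Each mouse was measured on 1 Illumina MouseRef-8 v2.0 array, and 8 arrays share a chip. Chips 1 and 2 hold ethanol-treated mice and chip 4 holds controls. Chip 3 alone holds both, where 4 mice given ethanol hold the odd positions (A, C, E, G) and 4 controls the even positions (B, D, F, H). Chip and treatment therefore cannot be told apart outside chip 3, and position and treatment cannot be told apart on it. The number of probes detected per array was 10644 to 11544 in ethanol-treated mice and 9480 to 11413 in controls. The lowest number belonged to control mouse C66 on chip 4, and values without this mouse are given beside some results.

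Endothelial cells line the vessels of the brain and form the blood-brain barrier. They read growth signals through the VEGF receptors Flt1 and Kdr and the angiopoietin receptor Tek, seal their contacts with claudin 5 (Cldn5), and rest on a sheet of collagen IV, laminin, nidogen and perlecan that they share with pericytes and astrocyte end-feet. Col4a1 and Col4a2 encode the chains of the main collagen IV trimer. Sparc is a secreted protein that binds collagen and is also made by glia. In RNA from whole tissue, fewer cells of a type and less RNA per cell cannot be told apart.

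The probes that carry the comparisons are shown first, because several results turn on where a probe lies. Sparc, on chromosome 11, has a probe near the 5′ end of its transcript and another near the 3′ end. The first starts at position 80 of NM_009242.1 and spans the start codon, shown in capitals, and the array annotation marks it as specific to an isoform. The second starts at position 1570, beyond the coding part, and is marked as common to all isoforms. Flt1, on chromosome 5, has a coding probe at position 3232 of NM_010228.3 and a 3′ probe at position 6214. The remaining lines give the probes of Col4a1 and Col4a2 on chromosome 8, of Cldn5 on chromosome 16 and of Ly6c1 on chromosome 15, whose near-identical neighbour Ly6c2 may share its signal. Probes are 50 bases long. Those beyond the coding part are shown by their first 30 bases, written 5′ to 3′ as in the array annotation.
Sparc 5′ probe: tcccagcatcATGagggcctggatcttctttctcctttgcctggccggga
Sparc 3′ probe: acatgacagactcccagcagcccgggacct
Flt1 coding probe: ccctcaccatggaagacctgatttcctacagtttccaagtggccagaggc
Flt1 3′ probe: gctatcgggattctctggttctgcttaaag
Col4a1 probe: gactgaatgactgacttcccgtacgacagc
Col4a2 probe: gatagctgagctcactgacccatttccacc
Cldn5 probe: ggccctgtaggtaccagagccttagagggg
Ly6c1 probe: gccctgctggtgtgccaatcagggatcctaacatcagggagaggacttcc

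Over all 32 arrays, limma compared normalized log2 signals between ethanol-treated mice and controls, with p-values adjusted by Benjamini-Hochberg over the 10187 tested probes, and a probe was called at an FDR below 1%. The basement membrane genes gave all 3 calls, none of which was kept with chip in the fit, as a fixed block (where Cldn5 was the call) or as a random block (where no member was called). The Sparc 5′ probe was upregulated, and the Sparc 3′ probe and Col4a2 were downregulated. Over the array, 3.58% of tested probes were called higher and 4.67% lower, beside 1 and 2 of the 10 member probes. In counts, 365 probes were called higher and 476 lower, and under median scaling, which replaces the quantile step, 131 higher and 23 lower, Col4a2 among the latter. At an FDR of 10%, 5 member probes passed, 3 higher and 2 lower, where 25.5% of all tested probes did. The median log2 difference of the 10 probes was 0.05.

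**Figure D1:**
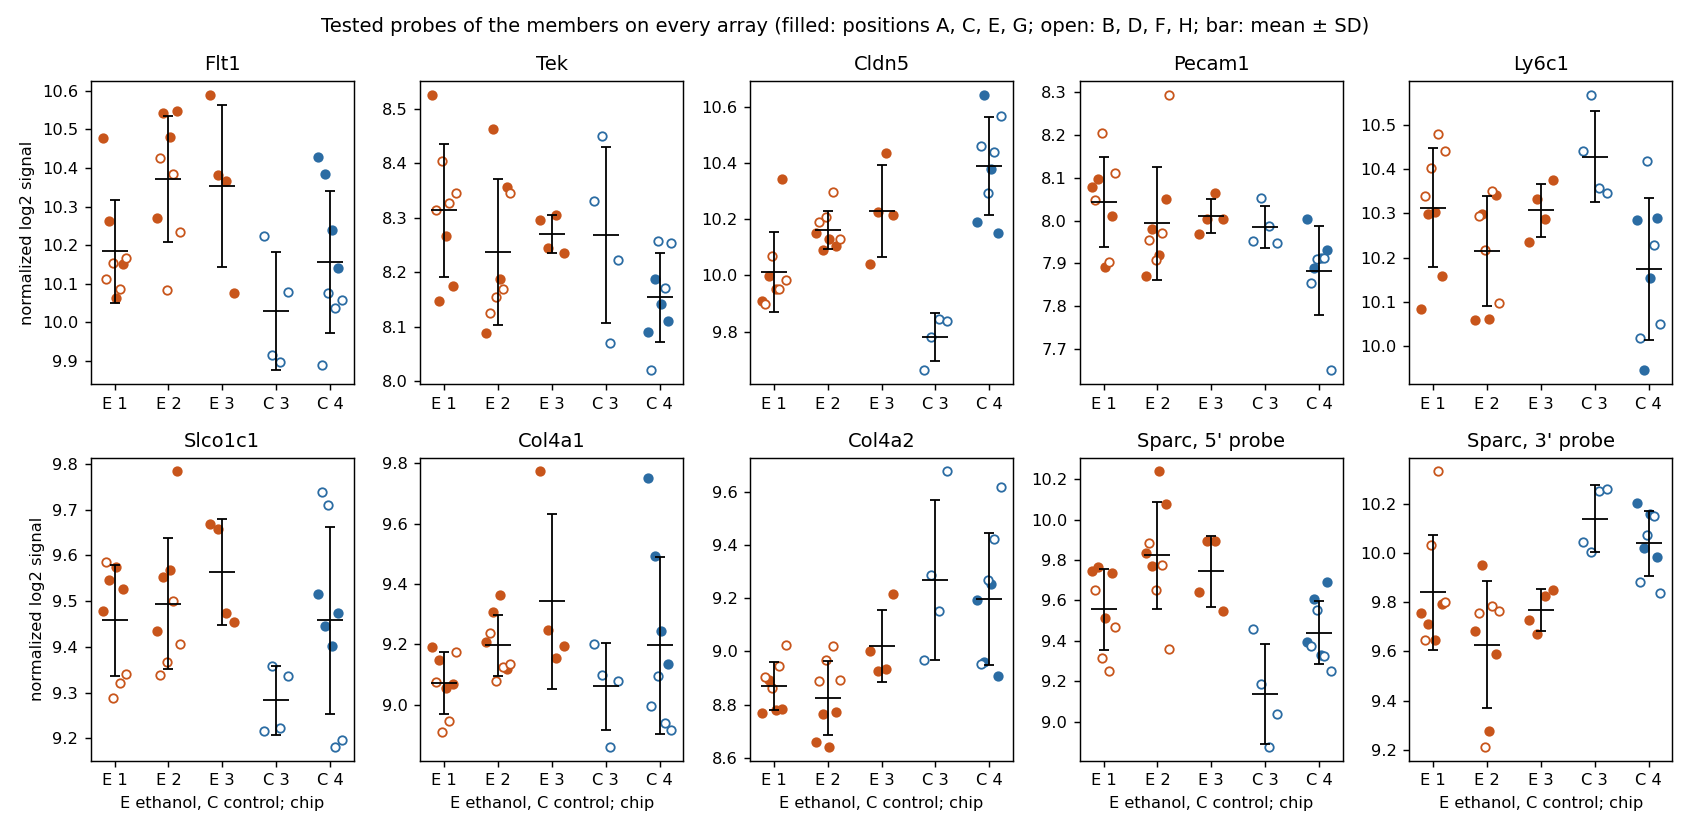
Normalized log2 signal of each tested member probe (vertical axes) on every array, by treatment and chip (horizontal axes). Filled points are odd positions, open points even positions, and black bars give the mean and SD of each treatment on each chip. Col4a2 and the Sparc 3′ probe sit lower in ethanol-treated mice, the Sparc 5′ probe sits higher, and Cldn5 differs between the controls of chips 3 and 4.

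The 2 Sparc probes moved in opposite directions. The log2 signal of the 5′ probe was 9.25 to 10.24 with a median of 9.74 in the 20 ethanol-treated mice and 8.87 to 9.69 with a median of 9.35 in the 12 controls. 18 ethanol-treated mice were above the control median and 11 above the highest control. The log2 difference was 0.36 (SE 0.08, adjusted p = 0.00208). The 3′ probe read 9.21 to 10.33 with a median of 9.76 in ethanol-treated mice and 9.84 to 10.26 with a median of 10.06 in controls. 16 ethanol-treated mice were below the lowest control, and 1, on chip 1, was above the highest. The log2 difference was -0.33 (SE 0.07, adjusted p = 0.00107).

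On chip 3 neither Sparc probe overlapped between the groups. The 5′ probe read 9.64, 9.89, 9.89 and 9.55 in ethanol-treated mice A46, A47, A49 and A50, and 9.46, 9.18, 8.87 and 9.04 in controls C52, C54, C55 and C56. The 3′ probe read 9.73, 9.67, 9.83 and 9.85 in the same ethanol-treated mice and 10.05, 10.002, 10.25 and 10.26 in the same controls. Every ethanol-treated mouse was above every control with the first probe and below every control with the second. The log2 differences were 0.61 (SE 0.11, adjusted p = 0.00239) and -0.37 (SE 0.07, adjusted p = 0.0042). Leaving out single mice of chip 3 moved the adjusted p to between 0.000671 and 0.0112 for the 5′ probe and between 0.00379 and 0.0198 for the 3′ probe, and the call of at least 1 of them was lost without A46, A47, A49, C55 or C56.

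The gap between the probes was followed within each array as the 5′ value minus the 3′ value, a measure chosen after its values were seen. Its mean was -0.04 ± 0.43 (SD, n = 20) with ethanol and -0.73 ± 0.32 (SD, n = 12) without, a difference of 0.69. 15 of 20 ethanol-treated mice were above all controls. On chip 3 the difference was 0.98, with no overlap. Between chips 1 and 2 and chip 4 it was 0.55, or 0.75 at odd positions, where all 8 ethanol-treated mice were above all 4 controls, and 0.36 at even positions, with 6 of 8 above all controls and 1 below all of them. Because both probes had already been called in opposite directions, the gap describes those calls and is given without a test. Within chip, treatment and position, the 2 probes had a correlation of -0.47 over the 32 arrays, which share their libraries and normalization.

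Such a split was rare on the array. Of 1748 genes with several tested probes, 4 had a probe called higher and a probe called lower: Sparc, Rtn1, Hsp90ab1 and Camk1g, named after their values were seen. The spread between the log2 differences of a gene's probes had a median of 0.08 and a 95th percentile of 0.27, and the 0.69 of Sparc was the second largest. Both Sparc probes have a GC content of 58%, and over all tested probes the log2 difference had a correlation of -0.04 with GC content, or -0.13 on chip 3.

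Between the separate chips, where chip and treatment cannot be told apart, the log2 difference moved with the order of probes along the transcript. In 347 genes with tested probes at least 1000 bases apart on the same transcript record, the log2 difference of the 5′-most probe exceeded that of the 3′-most probe in 77.8% of genes over all arrays, with a median gap of 0.09. Between chips 1 and 2 and chip 4 this held in 81.8% of genes, with a median gap of 0.12 and a 95th percentile of 0.43, and Sparc, at 0.55, ranked 7. On chip 3 it held in 48.99% of genes, with a median gap of 0.00 and a 95th percentile of 0.37, and Sparc, at 0.98, ranked 1. The part of this shift in the Sparc values of the separate chips was not tested.

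**Figure D2:**
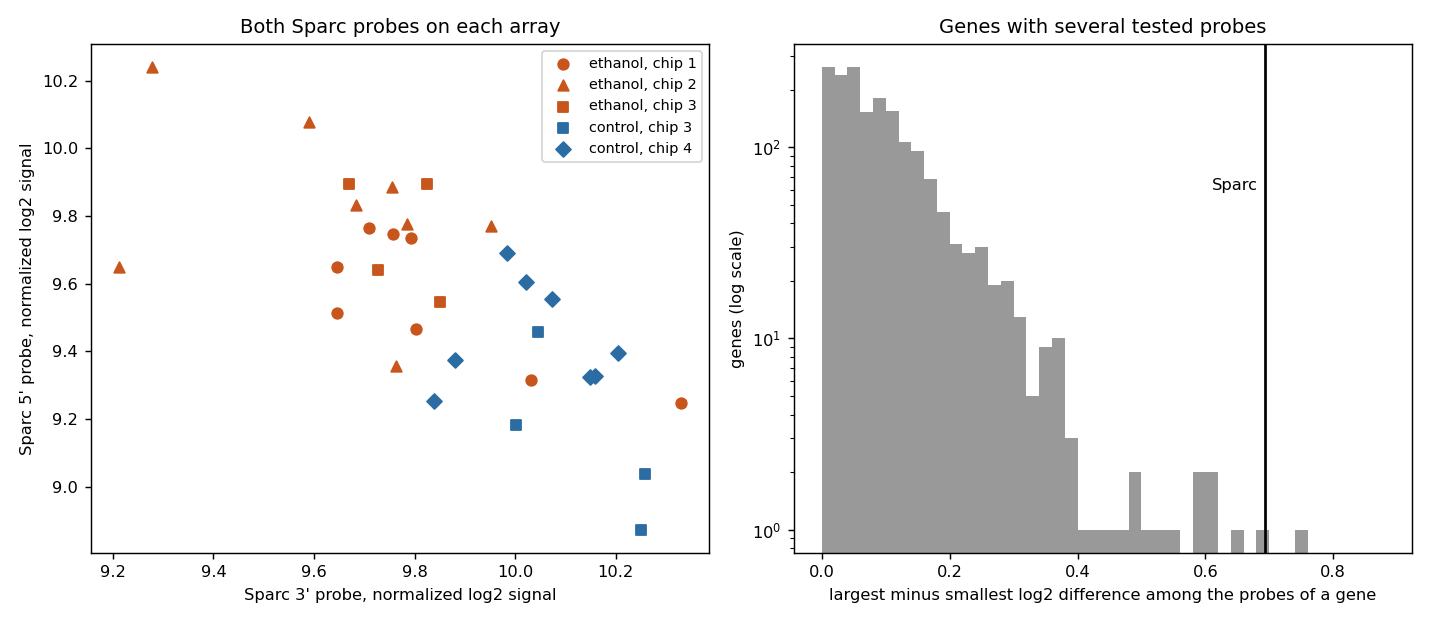
Left, the log2 signal of the Sparc 5′ probe (vertical) against that of the 3′ probe (horizontal) on each of the 32 arrays, by treatment and chip. Right, the spread between the log2 differences of the probes of each of 1748 genes, with the number of genes on a log axis and Sparc at 0.69. Controls lie toward high 3′ and low 5′ signal, and 2 ethanol-treated mice of chip 1 lie among them.

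Col4a2 was downregulated in ethanol-treated mice, and Col4a1, which encodes its partner chain, did not pass the test. Col4a2 read 8.64 to 9.22 with a median of 8.89 in ethanol-treated mice and 8.91 to 9.68 with a median of 9.22 in controls. All 20 ethanol-treated mice were below the control median and 12 were below the lowest control, a log2 difference of -0.34 (SE 0.06, adjusted p = 0.00047). Between chips 1 and 2 and chip 4 the log2 difference was -0.35 (adjusted p = 0.0005), and it was -0.32 at odd positions (adjusted p = 0.0187) and -0.38 at even positions (adjusted p = 0.0076). On chip 3 Col4a2 read 9.001, 8.93, 8.93 and 9.22 in A46, A47, A49 and A50 against 8.97, 9.29, 9.15 and 9.68 in C52, C54, C55 and C56. The groups overlapped there, and the log2 difference of -0.25 (SE 0.11) did not pass (adjusted p = 0.162).

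Col4a1 read 8.91 to 9.77 with a median of 9.15 in ethanol-treated mice and 8.86 to 9.75 with a median of 9.10 in controls, a log2 difference of 0.02 (SE 0.07, adjusted p = 0.849). On chip 3 it was 0.28 (SE 0.11, adjusted p = 0.113), where A46 read 9.77 and the other ethanol-treated mice 9.15 to 9.25. The value of Col4a2 minus that of Col4a1 within each array, again chosen after the values were seen and given without a test, differed by -0.36 between ethanol-treated mice and controls. The difference was -0.29 between chips 1 and 2 and chip 4, -0.47 at the even positions of these chips with 7 of 8 ethanol-treated mice below all 4 controls, and -0.10 at the odd positions with 1 of 8. On chip 3 it was -0.53, with 2 of 4 below all controls.

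The pair is transcribed head to head from a shared promoter. In the RefSeq windows of GRCm38.p6, 250 bases before to 50 after each gene's start, that of Col4a1 on the minus strand and that of Col4a2 on the plus strand (chr8:11312555-11312854) overlap by 78 bases. Promoter windows were found for 9 of the 10 genes. The shared stretch, chr8:11312777-11312854, is given on the plus strand with its GGGCGG match in capitals.
Col4a1 and Col4a2 shared stretch: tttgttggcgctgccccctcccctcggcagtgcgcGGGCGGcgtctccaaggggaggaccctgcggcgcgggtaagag
GGGCGG, searched on both strands, occurs 3 times in the Col4a2 window and in 35.7% of all 32851 promoter windows, and TATAAA, found in 13.6% of them, does not occur in it. Among 143 such overlapping pairs with both genes tested, the gap between the 2 log2 differences had a median of 0.08 and a 95th percentile of 0.24. The 0.36 of Col4a2 and Col4a1 was the widest of the 143. This rank rests on all arrays, where chip and treatment cannot be told apart outside chip 3. Odd minus even positions on chips 1, 2 and 4 gave 0.21 for Col4a1 and -0.20 for Col4a2. The part of chip and position in the gap was not tested.

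Among the receptors, Flt1, which binds VEGF-A and VEGF-B, was higher in ethanol-treated mice at an FDR of 10% and not of 1%. Its 3′ probe read 10.06 to 10.59 with a median of 10.27 against 9.89 to 10.43 with a median of 10.08, and 18 of 20 ethanol-treated mice were above the control median. The log2 difference was 0.18 (SE 0.06, adjusted p = 0.0356). On chip 3 it was 0.32 (adjusted p = 0.0394), with 10.59, 10.38, 10.37 and 10.08 in A46, A47, A49 and A50 against 10.22, 9.91, 9.90 and 10.08 in C52, C54, C55 and C56, so that the groups overlapped. Flt1 also followed position. On chips 1, 2 and 4, within each of which treatment did not vary, odd positions exceeded even ones by 0.19 (adjusted p = 0.013), and between chips 1 and 2 and chip 4 the difference was 0.12 (adjusted p = 0.217). The Flt1 coding probe did not reach a detection p-value below 0.01 on any of the 32 arrays, so the 3′ value stands without a second reading.

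Kdr, the main signalling receptor for VEGF-A, likewise did not reach a detection p-value below 0.01 on any array, and its level is not given. Tek read 8.09 to 8.53 in ethanol-treated mice and 8.02 to 8.45 in controls, a log2 difference of 0.08 (SE 0.04, adjusted p = 0.181). It was 0.00 on chip 3 and 0.12 between chips 1 and 2 and chip 4 (adjusted p = 0.0779).

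Cldn5 went in opposite directions on the 2 sets of chips. On chip 3 it was higher in ethanol-treated mice, with 10.04, 10.22, 10.44 and 10.21 in A46, A47, A49 and A50 against 9.66, 9.78, 9.85 and 9.84 in C52, C54, C55 and C56, and no overlap. The log2 difference was 0.45 (SE 0.08, adjusted p = 0.00227). Between chips 1 and 2 and chip 4 it was lower, 9.90 to 10.34 in 16 ethanol-treated mice against 10.15 to 10.64 in 8 controls, a log2 difference of -0.30 (SE 0.06, adjusted p = 0.0006). The 2 effects differed by 0.75 (SE 0.11, adjusted p = 5.3e-05), and Cldn5 was the 1 of 10 member probes that passed this test of the difference, against 3.49% of all tested probes. Over all arrays the log2 difference was -0.07 (SE 0.08, adjusted p = 0.563).

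The controls of the 2 chips also differed. At even positions, the controls of chip 3 were below those of chip 4 by 0.66 in Cldn5 (SE 0.09, adjusted p = 4.3e-05), the only member called in that comparison, where 1.86% of all tested probes were. The ethanol-treated mice of chip 3 and of chips 1 and 2 at odd positions gave no member at an FDR of 10%, and 0.628% of all probes. On chips 1, 2 and 4, Cldn5 at odd against even positions did not pass (adjusted p = 0.69). In chips 1 and 2 against chip 4 the fall was present at odd positions (-0.26, adjusted p = 0.0225) and at even positions (-0.35, adjusted p = 0.00322).

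Pecam1, an adhesion molecule of endothelial contacts, read 7.87 to 8.29 in ethanol-treated mice and 7.65 to 8.05 in controls. Its log2 difference of 0.10 (SE 0.04) passed an FDR of 10% (adjusted p = 0.0686), and without control mouse C66, which held the lowest value, it was 0.08 (adjusted p = 0.164). Its other probe was detected on 6 of 32 arrays and was not tested. Ly6c1, a surface protein of endothelial cells and of some blood cells, read 10.06 to 10.48 against 9.94 to 10.57, a log2 difference of 0.01 (SE 0.05, adjusted p = 0.888), and -0.12 on chip 3 (adjusted p = 0.241).

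Slco1c1, which carries thyroxine across the blood-brain barrier, passed an FDR of 10% on chip 3. There it read 9.67, 9.66, 9.47 and 9.45 in A46, A47, A49 and A50 against 9.22, 9.36, 9.22 and 9.34 in C52, C54, C55 and C56, with no overlap. The log2 difference was 0.28 (adjusted p = 0.0158), against 0.02 between chips 1 and 2 and chip 4 and 0.09 over all arrays (SE 0.05, adjusted p = 0.224). The difference between the chip 3 effect and that of the other chips did not pass (adjusted p = 0.144).

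Taken by comparison, chip 3 gave 3 calls among the 10 member probes (Cldn5 and both Sparc probes) against 3.23% of all probes, and 5 at an FDR of 10% against 17.1%. On it, 4 of 10 member probes did not overlap between the groups, where 15.2% of all tested probes did not. Chips 1 and 2 against chip 4 gave 2 calls (Cldn5 and Col4a2, both lower) against 11.7% (597 higher and 599 lower, or 465 and 18 with median scaling, where neither of the 2 members was called), and 6 at an FDR of 10% against 31.8%. The odd against the even positions on chips 1, 2 and 4 gave none at 1%, where 3.66% of all probes were called, and 4 at 10%, where 20.2% were. These 4 were Flt1, Col4a1 (0.21, adjusted p = 0.0202) and the Sparc 5′ probe (0.24, adjusted p = 0.0153), higher at odd positions, and Col4a2 (-0.20, adjusted p = 0.0145), lower. These are the positions that the ethanol-treated mice of chip 3 hold, and in each of the 4 the sign is that of the difference on chip 3. Of the other member probes, Ly6c1, Slco1c1 and the Sparc 3′ probe had the same sign in both. Cldn5 (-0.04), Pecam1 (-0.01) and Tek (-0.01) were lower at odd positions and not lower with ethanol on chip 3. The part of position in the chip 3 values was not tested.

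**Figure D3:**
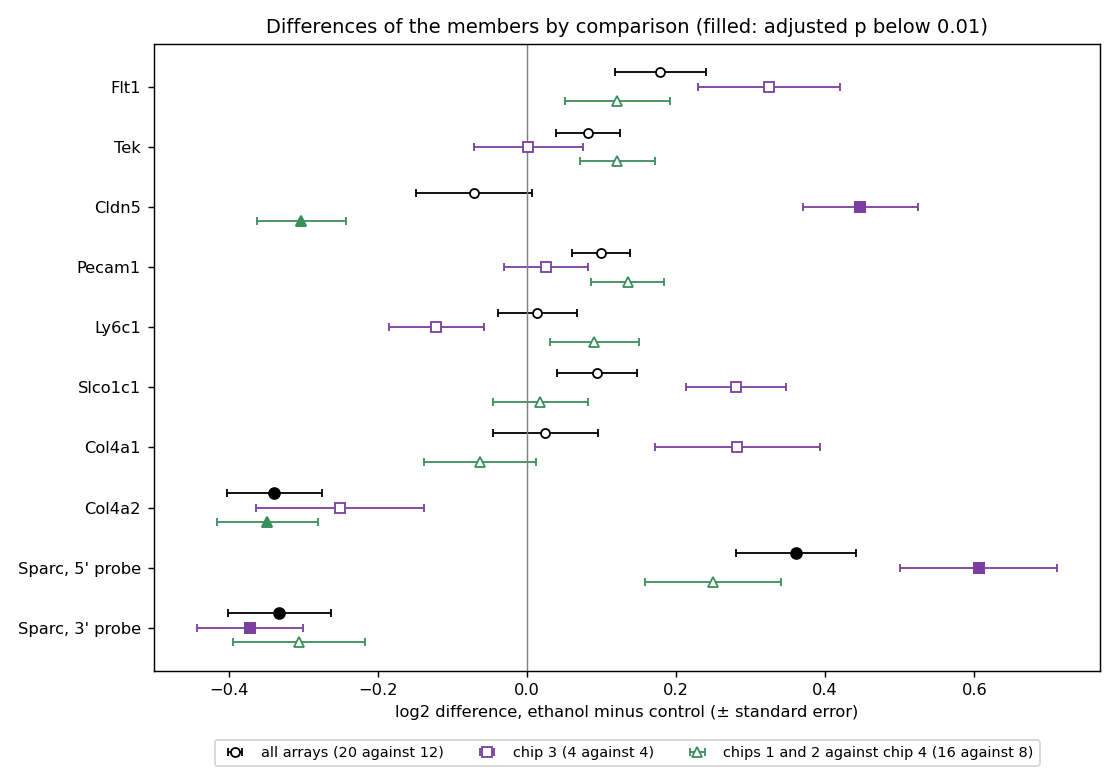
Log2 difference, ethanol minus control (horizontal), with its standard error, of each tested member probe (vertical) over all arrays, on chip 3 and between chips 1 and 2 and chip 4. Filled symbols passed an adjusted p of 0.01. Col4a2, both Sparc probes, Flt1, Pecam1, Slco1c1 and Tek (0.002 on chip 3) keep their sign in the 3 comparisons. Cldn5 is at 0.45 on chip 3 and -0.30 between the other chips.

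With chip as a fixed block, an estimate that rests on chip 3, the log2 differences were 0.61 for the Sparc 5′ probe (adjusted p = 0.0174), -0.37 for the Sparc 3′ probe (adjusted p = 0.0943) and -0.25 for Col4a2 (adjusted p = 0.247). With position (odd or even) entered beside the block they were 0.37, -0.33 and -0.05, and none passed. With position alone as a covariate they were 0.29, -0.32 and -0.30, and all 3 passed at 1%. With median scaling the 5′ probe was at 0.43 (adjusted p = 0.0112), the 3′ probe at -0.27 (adjusted p = 0.0545) and Col4a2 at -0.27 (adjusted p = 0.00897).

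The other genes of the vessel wall did not share a direction. Beside the calls in these and the following lists, 3.58% of all tested probes were called higher and 4.67% lower over all arrays. On chip 3, 1.49% of all tested probes were called higher and 1.74% lower. Of 40 further endothelial genes listed, 23 were tested with 25 probes, of which 3 were called lower and none higher, with a median log2 difference of -0.01. These were Slc2a1, the glucose transporter of the barrier (-0.24, adjusted p = 0.0003), Eng, a TGF-beta co-receptor (-0.14, adjusted p = 0.0048), and Robo4, an endothelial guidance receptor (-0.12, adjusted p = 0.0091). Esam, an adhesion molecule of endothelial contacts, was at -0.12 (adjusted p = 0.0487). None of the 25 probes was called on chip 3, where the median was 0.03, Slc2a1 was at -0.17 and Eng at -0.14, and the sign turned for Robo4 (0.03, adjusted p = 0.837) and Esam (0.07, adjusted p = 0.606).

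In the VEGF and angiopoietin pathway, 12 of 25 listed genes were tested with 16 probes, of which 1 was called higher and 1 lower. Vegfb, a ligand of Flt1, fell by 0.18 on the log2 scale (adjusted p = 0.0008), and Epas1, an endothelial hypoxia-inducible factor, rose by 0.14 (adjusted p = 0.0041). Nos3, the endothelial nitric oxide synthase, was at -0.11 (adjusted p = 0.0328) with the lead of its 3 probes, the others being at -0.07 and -0.03, and Notch4 at -0.11 (adjusted p = 0.0501). The median over the 16 probes was -0.02, and none was called on chip 3.

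Of 43 further genes of the basement membrane and its assembly, 16 were tested with 17 probes. Timp2, an inhibitor of matrix metalloproteinases, fell by 0.24 (adjusted p = 0.0047), and by 0.35 on chip 3 (adjusted p = 0.0098). No other probe was called over all arrays, and the median was 0.01. On chip 3, 3 probes were called higher: both of Dag1, the laminin receptor dystroglycan (0.38 and 0.39), and that of Smoc1 (0.40), a matrix protein of the Sparc family. On chips 1, 2 and 4, where treatment did not vary within a chip, the same probes were higher at odd than at even positions, by 0.41 and 0.33 for Dag1 (adjusted p = 0.000722 and 0.000578) and by 0.29 for Smoc1 (adjusted p = 0.0106). Over all arrays the second Dag1 probe was at 0.22 (adjusted p = 0.0216), the membrane protease Mmp14 at 0.13 (adjusted p = 0.0591) and P4hb, a subunit of collagen prolyl hydroxylase, at 0.10 (adjusted p = 0.0753).

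Among markers of pericytes and smooth muscle, which wrap the vessels, 3 of 8 probes for 5 genes were called, all higher. Over all tested probes, 3.58% were called higher. Rgs5, a pericyte marker, rose by 0.32 (adjusted p = 0.0002). Of the 4 probes of Acta2, smooth muscle actin, 2 were called higher, by 0.20 each (adjusted p = 0.0036 and 0.0047), and the other two were at -0.02 (adjusted p = 0.88) and -0.04 (adjusted p = 0.574). On chip 3 Rgs5 was at 0.07, and the Acta2 probes were at 0.25, 0.23, 0.32 and 0.16 in the same order, none at an FDR of 1%. Between chips 1 and 2 and chip 4 they were at 0.18, 0.21, -0.15 and -0.13. Vtn was at 0.13 (adjusted p = 0.0793) and Notch3 at -0.09 (adjusted p = 0.0422). With chip as a fixed block and position, Rgs5 was at -0.06.

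Markers of other cells moved with the chips as well. Of 12 probes for 9 meningeal fibroblast genes, which also make Col4a1, Col4a2 and Sparc, none was called over all arrays. On chip 3, 4 were called higher, against 1.49% of all tested probes. These were Igf2 (0.64), Dcn (0.53), Slc6a13 (0.38) and Ogn (0.36), named after their values were seen. Slc6a13 was called lower between chips 1 and 2 and chip 4 (-0.36, adjusted p = 0.00992). The called probes of Igf2, Dcn and Ogn were at -0.09, 0.04 and -0.09 there, and none passed. The median of the list was 0.01 over all arrays, 0.19 on chip 3 and -0.08 between the other chips, and odd exceeded even positions by 0.13. Its summed level, the mean of scaled values, ran from -1.40 to 0.81 in ethanol-treated mice and from -1.08 to 1.20 in controls. Igf2 and the called Dcn probe were also higher at odd positions of chips 1, 2 and 4, by 0.35 (adjusted p = 0.0169) and 0.43 (adjusted p = 0.00175), and the second Dcn probe was at 0.18 on chip 3. Over all arrays Col6a1 was at 0.14 (adjusted p = 0.0537) and, with its second probe, at 0.04, Dcn at 0.16 (adjusted p = 0.276), Slc6a13 at -0.15 (adjusted p = 0.278) and Fmod at -0.08. The part of these cells in the chip 3 values was not tested.

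Of 13 astrocyte probes 2 were called higher, with Aqp4, the water channel of the end-feet, at 0.52 (adjusted p = 0.001) over all arrays and 0.55 on chip 3 (adjusted p = 0.0035). On chips 1, 2 and 4 Aqp4 was higher at odd positions by 0.33 (adjusted p = 0.0421). The other call was a probe of Acsbg1 (0.22, adjusted p = 0.004), at -0.05 on chip 3, whose second probe was at 0.05 over all arrays. Slc1a3 (0.35) and Gjb6 (0.40) were also called higher on chip 3. Between chips 1 and 2 and chip 4 they were at 0.09 (adjusted p = 0.425) and -0.25 (adjusted p = 0.00498). At odd against even positions of chips 1, 2 and 4, Slc1a3 was at 0.24 (adjusted p = 0.00549) and Gjb6 at 0.03 (adjusted p = 0.744). Of 16 oligodendrocyte probes 1 was called, of Mbp (0.59, adjusted p = 0.0089), whose other probes were at -0.06 (adjusted p = 0.7) and -0.15 (adjusted p = 0.115), and the median of the list was -0.08. On chip 3, 1 probe each of Mog, Mobp and Cnp was called lower, against 1.74% of all tested probes. The oligodendrocyte median was -0.33 there, with the other Cnp probe at -0.04. The Mbp probes, in the order given above, were at 0.22, -0.38 and 0.28 on chip 3 (adjusted p = 0.322, 0.0416 and 0.0422). Chips 1 and 2 against chip 4 gave 0.72, 0.04 and -0.31 for them (adjusted p = 0.00955, 0.84 and 0.000721). Of 11 neuron probes 1 was called, of Slc17a7 (-0.26, adjusted p = 0.0043), and the list median was 0.05. At an FDR of 10%, 3 neuron probes were higher and 3 lower. Both Gad1 probes were among the higher, at 0.27 (adjusted p = 0.0153) and 0.30 (adjusted p = 0.014). On chip 3 Slc17a7 was called lower (-0.46) and 1 Gad1 probe higher (0.59, adjusted p = 0.00106). At odd against even positions of chips 1, 2 and 4, the same probes were at -0.19 (adjusted p = 0.0444) and 0.27 (adjusted p = 0.0456). No microglia probe was called, and the median of that list was -0.06. At an FDR of 10%, Laptm5 was higher (0.12, adjusted p = 0.0255) and C1qb lower (-0.12, adjusted p = 0.0826). None of 3 blood cell probes was called (Hbb-b1 -0.06). Of 7 choroid plexus genes 1 was tested, Aqp1, at 0.00 over all arrays and 0.34 on chip 3 (adjusted p = 0.0091).

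**Figure D4:**
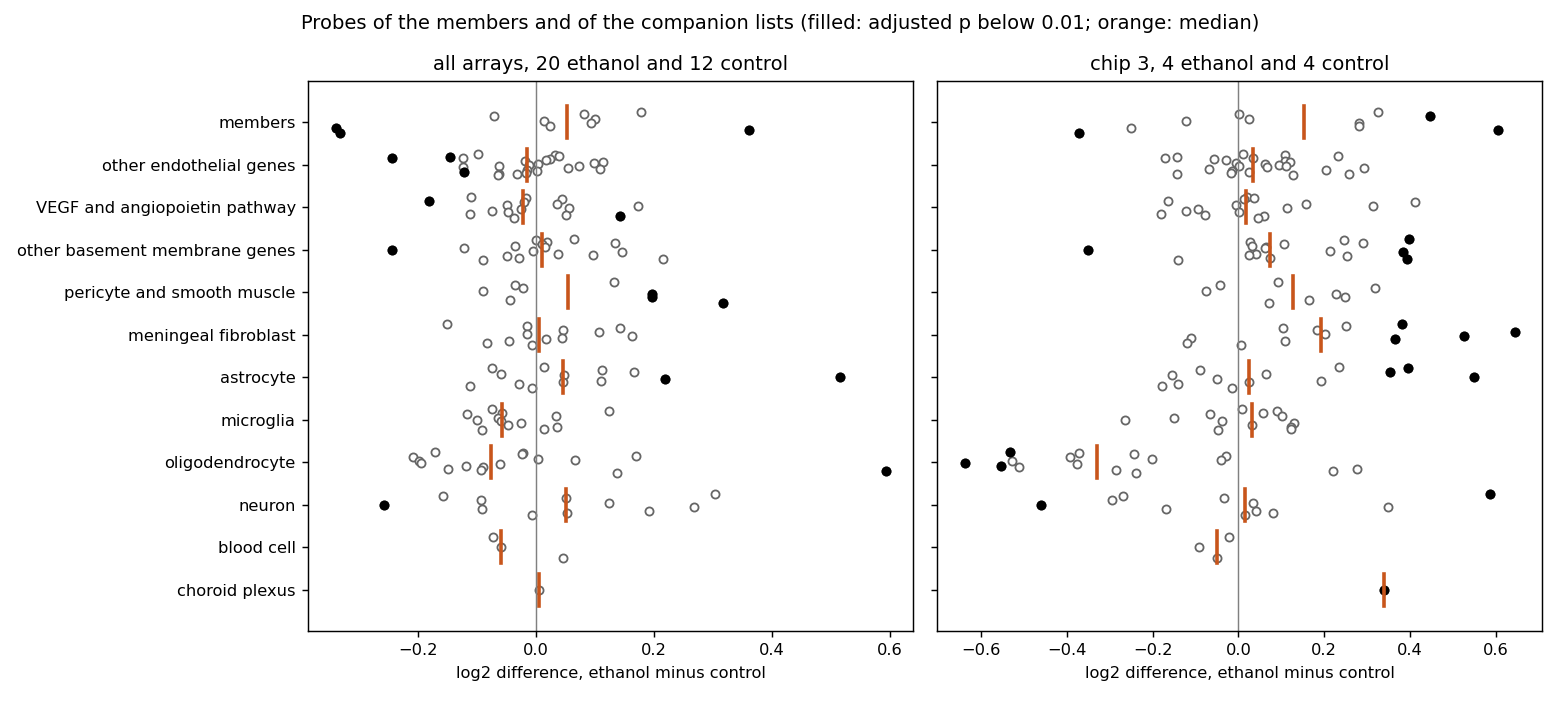
Log2 difference, ethanol minus control (horizontal), of each tested probe of the members and of 11 lists of other vessel genes and cell type markers, over all arrays (left) and on chip 3 (right). Filled points passed an adjusted p of 0.01 and orange bars are medians. The meningeal fibroblast median is 0.01 on the left and 0.19 on the right, and the oligodendrocyte median is -0.08 and -0.33.

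With values centred within chip, treatment and position, the highest correlation over the 32 arrays was that of Flt1 with Col4a1 (0.62), followed by Flt1 with Tek (0.43). Cldn5 and Ly6c1 were at -0.41, and Col4a2 and the Sparc 5′ probe at -0.39. The SD within these cells was 0.20 for the Sparc 3′ probe, 0.19 for its 5′ probe, 0.17 for Col4a2 and for Col4a1, and 0.102 for Pecam1, where the median of all tested probes was 0.105. A mean of the members was taken from the brightest tested probe of each gene, which for Sparc was the 3′ probe. The members followed it unevenly. Their correlation with the mean of the others ran from -0.37 for Cldn5 to 0.43 for Flt1, with Slco1c1 at -0.01 and Col4a2 at 0.04. The genes whose centred values followed the mean of the members most closely were BC018242 (0.73), C2 (0.72), LOC100047934 (0.71), Sfrs14 (0.71), Ogn (0.70), Slc9a3r1 (0.69), Centg1 (0.68) and Cacna2d1 (0.68). By list, the median correlation with that mean was 0.48 for meningeal fibroblast probes, 0.37 for other basement membrane probes and 0.12 for other endothelial probes. It was 0.21 for astrocyte, 0.17 for microglia and 0.16 for pericyte and smooth muscle probes, all above the other endothelial probes. The VEGF and angiopoietin pathway was at 0.10, neuron at 0.08, blood cell at 0.06 and the 1 choroid plexus probe at 0.42. Oligodendrocyte probes were at -0.45, against -0.01 for all tested probes. Arrays share chips and normalization, so these correlations are descriptions.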

How the data were processed

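RNA from the FCtx of 32 mice was hybridized by the authors to 1 array each, and groups, chips and positions were taken from the labels. The intensities deposited by the authors are mean bead signals per probe on a linear scale, without normalization. The detection p-values deposited by the authors compare a probe with negative control beads, and the other columns deposited by the authors hold bead errors and bead numbers. How background was treated, and by which software, is not given in the sources used here. The submitters' processing notes name lumi and limma. All columns were matched to mice (0 left over).

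A variance-stabilizing transform built from the bead errors and quantile normalization, after the study's methods, were computed in R 4.3.3 with data.table (version 1.17.8). The transform is close to log2 for bright probes and compresses dim ones. Testing was limited to the 10187 probes detected (p-value below 0.01) on 24 or more of 32 arrays, with limma 3.58.1 and no covariate, and with Benjamini-Hochberg adjustment over these probes. The script was tested on simulated data. The number of arrays limits the precision. Each array is a mouse, and shared litters or cages are not given in the labels. Sequences came from the array annotation and from RefSeq promoter windows, and figures from Python 3.11.15 with pandas 2.3.3, numpy 2.4.6 and matplotlib 3.10.9. Chromosomes are those of the array annotation, whose genome build is not given in the sources used here.

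The members, the lists and the tests were chosen with earlier results of these data known. Named are all members, the 4 genes with the smallest adjusted p in each vessel or meningeal list, the 1 in each other list, and the 8 genes most like the members' mean. Some other genes are named with their values already known, because a call or a count rests on them. Alternatives were log2 in place of the transform, normexp background, median scaling, all probes, probes detected on all arrays, array weights, chip as a fixed or random block, position as a covariate, an FDR of 10%, leaving out C66, and leaving out each mouse of chip 3.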

Additional observations from a re-analysis of the deposited data

Results flagged for a closer look

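In 50 groups of member values (10 probes on each treatment and chip), 4 held a mouse whose gap to the nearest other, over the range of its group, passed Dixon's 95% limit. Chance marks about 1 group in 20. Cldn5 of mouse A11 on chip 1 was 10.34, with the nearest ethanol-treated mouse of that chip at 10.07. Pecam1 of control C66 on chip 4 was 7.65, with the nearest at 7.85, and Pecam1 of mouse A45 on chip 2 was 8.29, with the nearest at 8.05. Col4a1 of mouse A46 on chip 3 was 9.77, with the nearest at 9.25, and without A46 the Col4a1 difference on chip 3 was 0.14.

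The Cldn5 difference on chip 3 exceeded that between chips 1 and 2 and chip 4 by 0.75, by a limma interaction term (adjusted p = 5.3e-05).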

How the results depend on the processing

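Of the 10 member probes, 3 were called over all arrays. Median scaling gave 1 (Col4a2), chip as a fixed block 1 (Cldn5), chip as a random block 0, chip as a fixed block with position 0, and an FDR of 10% gave 5. On chip 3, normexp gave 0 of 3, an FDR of 10% gave 5, and leaving out single mice gave 1 to 4. Between chips 1 and 2 and chip 4, median scaling gave 0 of 2 and an FDR of 10% gave 6. Over all probes, the 841 calls of all arrays became 154 with median scaling, 21 with chip as a fixed block, 78 as a random block and 2 with position added. The 329 of chip 3 became 21 with normexp and 179 with median scaling. Median scaling took the 1196 calls of chips 1 and 2 against chip 4 to 483, the 356 of the difference between chips to 55 and the 373 of odd against even positions to 0. Without C66, the 841 became 579 (240 higher and 339 lower, 5.68% of tested probes) and the 1196 became 1010 (9.91%).

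Signs turned in these cases. With chip as a fixed block, Cldn5 was 0.45 (adjusted p = 0.0096), Ly6c1 -0.12, Notch4 0.021, Slc6a13 0.38, Robo4 0.0255 and Esam 0.0667. As a random block, Cldn5 was 0.0419 and Ly6c1 -0.0155. With position added to the fixed block, Cldn5 was 0.48, Ly6c1 -0.0333, Slc6a13 0.19, Robo4 0.10, Esam 0.0076, Rgs5 -0.0559 and Vtn -0.0233. With position alone, Col4a1 was -0.0381 and Aqp1 -0.0568. With array weights Aqp1 was -0.0072. Without C66, Ly6c1 was -0.0049, Aqp1 -0.035 and, between chips 1 and 2 and chip 4, Slco1c1 -0.0193. With median scaling, Tek on chip 3 was -0.00016, Col4a1 between chips 1 and 2 and chip 4 was 0.023, the Col4a2 difference between chips was -0.0040, and odd minus even was 0.0126 for Tek, 0.0547 for Cldn5, 0.0036 for Ly6c1 and 0.0359 for the Sparc 3′ probe. Tek on chip 3 ran from -0.0641 to 0.0628 with single mice left out. The cause was not tested. Normexp, which does not compress dim probes, gave 0.56 for Rgs5, 0.35 for Acta2 and Epas1 and -0.34 for Eng. The Sparc gap of 0.69 was 0.70 to 0.83, and that of Col4a2 and Col4a1 -0.31 to -0.49, under the alternatives run for them (median scaling, log2, normexp, without C66), chosen after seeing the data.

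No paired analysis was possible because ethanol-treated mice and controls share no mouse numbers. Kdr, the Flt1 coding probe and a Pecam1 probe were too dim to be tested.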
